A study of Mus musculus with 62 samples.

Results

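The regions described here carried acetylated histone in several muscles and no H3K4me2 peak in any of them. They were chosen by merging the H3K27ac peaks of 4 mouse skeletal muscles, keeping merged regions that overlapped an H3K27ac peak of at least 3 muscles, and dropping every region that touched an H3K4me2 peak of any of the 4 by 1 bp or more. Of 51588 merged regions, 26665 were acetylated in at least 3 muscles, and 3157 of these (11.8%, Wilson 95% interval 11.5% to 12.2%) had no H3K4me2 peak. They are called acetyl-only regions below, and the other 23508 are called dimethylated regions. The peak calls themselves made this division, so it is a description of the lists, and a region without a called peak may still carry some of the mark below the calling threshold. The study reports that H3K4me2 signal was typically above background even where only an H3K27ac peak was called. Both names therefore refer to calls and not to absence of the mark.

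H3K27ac, acetylation of histone H3 at lysine 27, is placed by the acetyltransferases CBP and p300 and is read as a mark of active promoters and enhancers. H3K4me2, dimethylation of lysine 4, is placed by methyltransferases of the MLL family and lies over promoters and over both active and poised enhancers. Most active enhancers are described with both marks, and the nucleosome-depleted site where factors bind lies between the marked nucleosomes, where ATAC-seq (insertion of adapters by a transposase into accessible DNA) detects it.

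All 4 muscles came from wild-type sedentary C57BL/6 mice (C57BL/6J in the study's methods), with 2 libraries per mark and muscle. They were the quadriceps (Quad), the diaphragm (Dia), the soleus (Sol) and the extensor digitorum longus (EDL). The same methods give male mice bought at 7 to 8 weeks of age. Each Quad sample was a single quadriceps of 1 animal, and each EDL, Sol or Dia sample pooled 3 animals. Another 4 Quad groups, with 2 libraries per mark each, took no part in choosing the regions. They were Sed (wild-type, sedentary), Ex (wild-type, running wheels for 4 weeks from 8 weeks of age, harvested 4 to 6 hours after the last bout), mTg (a Pgc1a transgene expressed in skeletal muscle, genotype label PGC1a Tg(+), sedentary) and Wt (wild-type littermates, sedentary). Whole muscle was used, so nuclei of vessels and connective tissue were included, and fewer cells with a mark cannot be told apart from less of the mark per cell. The 4-muscle H3K27ac libraries held 15.3 to 24.2 M tags and the H3K4me2 libraries 16.8 to 22.7 M. In all 8 groups no H3K27ac peak had Myh6 or Alb, markers of heart and liver, as its nearest gene. All 5 endothelial markers and all 5 fibroblast markers had one, as did 4 or 5 of the 5 muscle fiber genes Acta1, Ckm, Des, Mb and Tnnc2.

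Sequence under these regions is shown first. Windows of 200 bp are given for 3 of the most strongly acetylated acetyl-only regions, centred on their strongest accessible site in control quadriceps, for the 3 most acetylated ones whose accessible site held TGACTCA, and for 2 strongly acetylated ones with no accessible site listed, centred on the region. Coordinates are mm10, plus strand, and the bases were read from the NCBI GRCm38 reference. Capitals mark matches, on either strand, to the 11 words searched. These were TGACTCA of AP-1, the E-boxes CAGCTG of myogenic factors and CACGTG of clock factors, the nuclear receptor half-site AGGTCA, its extended form TCAAGGTCA of estrogen-related receptors, which contains the former, GGGCGG of Sp factors, CATTCC of TEAD factors, TGTGGTT of Runx factors, AGATAA of GATA factors, AGAACA of steroid receptors, and the MEF2 consensus.
1700016G22Rik (chr13:5604307-5604506, accessible): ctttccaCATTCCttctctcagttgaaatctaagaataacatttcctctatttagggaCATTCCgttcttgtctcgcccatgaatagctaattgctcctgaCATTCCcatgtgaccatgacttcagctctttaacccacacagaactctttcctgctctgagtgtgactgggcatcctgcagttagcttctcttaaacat
Irs2 (chr8:11098525-11098724, accessible): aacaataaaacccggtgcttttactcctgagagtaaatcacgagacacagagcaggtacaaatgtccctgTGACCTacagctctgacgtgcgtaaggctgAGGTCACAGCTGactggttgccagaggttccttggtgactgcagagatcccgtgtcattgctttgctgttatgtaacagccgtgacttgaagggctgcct
Mb (chr15:77003289-77003488, accessible): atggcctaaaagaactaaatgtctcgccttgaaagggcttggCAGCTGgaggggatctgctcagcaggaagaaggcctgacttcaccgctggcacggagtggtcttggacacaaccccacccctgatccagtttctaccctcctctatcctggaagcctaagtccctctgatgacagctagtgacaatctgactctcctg
Fez1 (chr9:36898687-36898886, accessible, with TGACTCA): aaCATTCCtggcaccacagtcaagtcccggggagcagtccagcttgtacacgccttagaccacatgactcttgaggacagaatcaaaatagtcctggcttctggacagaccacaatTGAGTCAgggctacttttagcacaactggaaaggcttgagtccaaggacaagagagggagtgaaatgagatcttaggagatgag
Hexa (chr9:59534000-59534199, accessible, with TGACTCA): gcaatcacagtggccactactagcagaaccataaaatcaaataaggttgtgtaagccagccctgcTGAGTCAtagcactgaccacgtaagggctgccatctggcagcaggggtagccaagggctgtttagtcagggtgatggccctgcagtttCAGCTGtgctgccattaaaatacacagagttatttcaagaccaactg
B3galt2 (chr1:142895142-142895341, accessible, with TGACTCA): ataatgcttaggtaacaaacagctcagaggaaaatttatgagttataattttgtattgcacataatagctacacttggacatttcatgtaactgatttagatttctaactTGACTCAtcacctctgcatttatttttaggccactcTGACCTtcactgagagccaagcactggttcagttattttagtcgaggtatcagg
Cyp7a1 (chr4:6239901-6240100, no accessible site listed): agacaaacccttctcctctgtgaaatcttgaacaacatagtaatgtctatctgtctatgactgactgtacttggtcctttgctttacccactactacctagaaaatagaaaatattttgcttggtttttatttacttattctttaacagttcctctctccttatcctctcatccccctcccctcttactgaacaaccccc
Cdkal1 (chr13:29638200-29638399, no accessible site listed): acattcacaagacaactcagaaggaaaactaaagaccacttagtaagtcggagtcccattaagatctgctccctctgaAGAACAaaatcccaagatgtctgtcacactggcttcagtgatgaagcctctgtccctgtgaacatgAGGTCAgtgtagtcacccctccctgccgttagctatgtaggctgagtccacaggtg
The window near 1700016G22Rik held CATTCC, the word bound by TEAD factors, 3 times, and the Irs2 window held AGGTCA, the half-site of nuclear receptors, on both strands beside CAGCTG, an E-box of myogenic factors. The 3 windows of Fez1, Hexa and B3galt2 each held 1 copy of TGACTCA, the word bound by AP-1 (dimers of Fos and Jun proteins), and the Cyp7a1 window held none of the words. Windows of other strongly acetylated regions were read and are not printed. Those of Usp38 and Morf4l1-ps1 (accessible) and of G530011O06Rik (no accessible site listed) also held none of the words. These are matches of letters and say nothing of binding.

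The share of regions without H3K4me2 was lower the more muscles carried acetylation. It was 58.9% of 16376 regions acetylated in 1 muscle, 37.0% of 8547 in 2, 1762 of 7347 in 3 and 7.22% of 19318 in all 4. The acetyl-only regions therefore consisted of 1762 regions of 3 muscles and 1395 of all 4. Dia was the muscle without a peak for 630 of the 1762, Sol for 412, EDL for 374 and Quad for 346, so each muscle contributed to the set. At the borders of the rule, 17 acetyl-only regions had an H3K4me2 peak within 200 bp and 14 dimethylated regions held at most 200 bp of it. Their median H3K27ac percentiles were 24.4 and 37.6, and 5 of the 17 and 7 of the 14 had an accessible site. Regions of 2 muscles without H3K4me2, just outside the rule, had a median percentile of 19.0, against 25.9 for the acetyl-only regions of 3 muscles.

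Acetyl-only regions were almost never promoters. By the authors' annotation of the peak with the highest level in a region, 20 of 3157 (0.634%, interval 0.410% to 0.977%) were promoters, 1486 (47.1%) were intragenic and 1651 (52.3%) were intergenic. Introns held 42.4%. Among the dimethylated regions, 19.4% were promoters and 25.3% intergenic, and among all merged regions 10.4% and 33.3%. The 3' untranslated regions held 60 acetyl-only regions (1.90%, interval 1.48% to 2.44%), beside 0.702% of the dimethylated ones.

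They also lay farther from start sites. The median distance to the nearest transcription start site was 36380 bp, against 8006 bp for dimethylated regions and 19039 bp for those of them with no promoter peak. Of the 3157, 487 (15.4%) lay within 10000 bp of a start site, against 52.8% of dimethylated regions. The nearest H3K4me2 peak of the 4 muscles was close by on this scale: its median distance was 6883 bp, and 1967 acetyl-only regions (62.3%) had one within 10000 bp. For regions of 1 muscle without H3K4me2 the median was 6322.5 bp.

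The acetyl-only regions were narrower than the dimethylated ones, with a median width of 2433 bp (quartiles 1866 and 3273 bp) against 2960 bp. A wider region has more room to touch an H3K4me2 peak, so width is tied to the rule. The widest were a 17566 bp region near 1700023C21Rik, 15865 bp near Ddx10 and 15738 bp at the 3' end of Lpl (chr8:68900077-68915814), which encodes lipoprotein lipase.

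H3K27ac was lower at acetyl-only regions in each of the 8 libraries. Levels here are the deposited log2 normalized tags minus the log2 of the width in kb, and are compared only within a library. In EDL the median was 5.52 and 5.58 in replicates 1 and 2, against 6.58 and 6.64 at dimethylated regions. In Quad it was 5.18 and 5.33 against 6.27 and 6.28. Both muscles thus showed a gap near 1 log2 unit, far wider than the gap between replicates. In Sol the medians were 5.38 and 5.49 against 6.28 and 6.28, and in Dia 5.71 and 5.62 against 6.71 and 6.72. Input chromatin was also lower at acetyl-only regions, by less: 3.30 and 3.34 against 3.97 and 3.91 in Quad, 3.45 against 3.93 in EDL, 3.67 against 4.32 in Dia and 3.43 against 3.87 in Sol. The part of input in the gap was not tested. Since the rule used these peaks, the gap is a description.

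**Figure D1:**
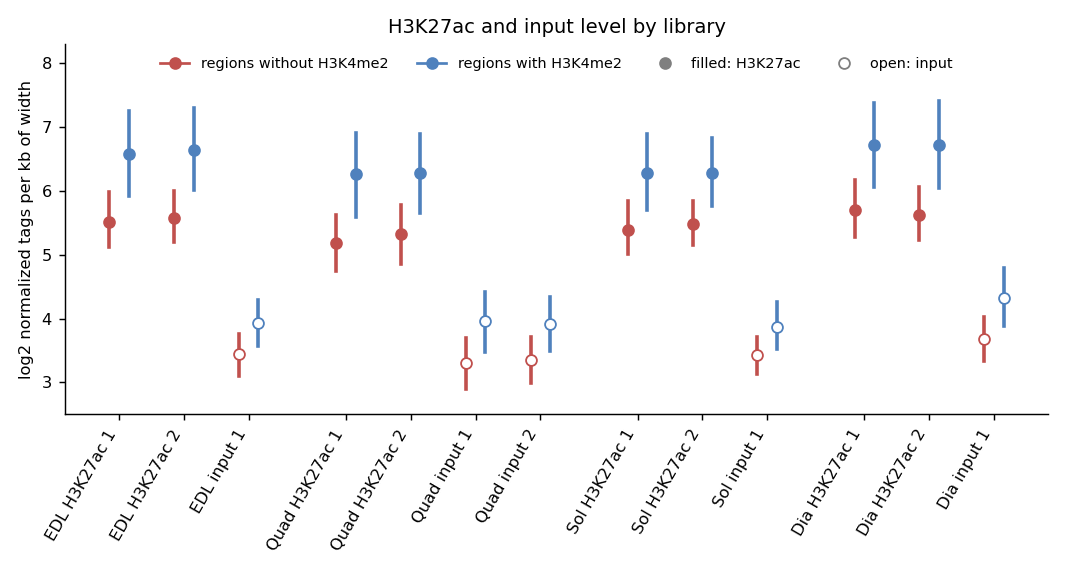
Median log2 normalized tags per kb of region width (points) with the quartiles over regions (bars) in each H3K27ac library (filled) and input (open) of the 4 muscles, for acetyl-only regions (red) and dimethylated regions (blue). In every H3K27ac library the red median lies below the blue one, for example 5.52 against 6.58 in EDL replicate 1, and the inputs show a smaller gap.

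Ranked within each muscle's own list, acetyl-only regions had their highest median percentile in Quad (37.1), then Sol (30.3), Dia (28.7) and EDL (26.5). Dimethylated regions had 69.2, 63.9, 63.5 and 65.0 in the same order. Averaged over the muscles with a peak, the median percentile was 30.3 against 62.9, and 55.8 for dimethylated regions without a promoter. Replicates ranked acetyl-only regions less alike than dimethylated ones, with Spearman's rho across regions of 0.782 to 0.817 against 0.937 to 0.958 in the 4 muscles. Muscles also ranked them less alike: across the 1395 regions acetylated in all 4, rho was highest between EDL and Quad (0.732) and lowest between Quad and Dia (0.575), while for 17923 dimethylated regions it ran from 0.817 to 0.923. Regions are not independent and the lower levels span a narrower range, so these correlations carry no p-value. Of the 1395 regions, 663 had their highest percentile in Quad, 362 in Sol, 229 in Dia and 141 in EDL. The Quad list was also the longest, with 40949 H3K27ac peaks against 35750 in EDL, 34173 in Sol and 33106 in Dia. The part of list length in these ranks was not tested.

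A few acetyl-only regions reached the top of the lists. The most acetylated lay 253.843 kb from the start of 1700016G22Rik (chr13:5601707-5606726, intergenic), at percentile 98.8 in Quad, 97.7 in Dia, 91.4 in EDL and 87.6 in Sol. Its log2 levels per kb were 7.63 and 7.68 in EDL, 7.59 and 8.14 in Quad, 7.01 and 7.10 in Sol and 8.34 and 8.34 in Dia, all above the median of dimethylated regions in the same library. This gene had 8 acetyl-only regions among 17 acetylated in at least 3 muscles, and 7 of the 8 had an accessible site.

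An intergenic region 90.258 kb upstream of Irs2 (chr8:11096619-11101167), the gene of an insulin receptor adaptor, had log2 levels per kb of 8.02 and 7.38 in EDL, 7.23 and 6.48 in Quad, 7.40 and 6.86 in Sol and 7.85 and 7.03 in Dia. Replicate 1 was the higher in every muscle, and the percentiles ran from 83.5 in Dia to 92.3 in EDL. Irs2 had 5 acetyl-only regions of 8, and the next most acetylated (chr8:11023422-11026964, intron of a noncoding transcript) had percentiles of 76.5 in Sol to 86.2 in Quad. MED1, a subunit of the Mediator complex that joins enhancers to polymerase, had a peak in the first of these in Dia.

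A region near Mb (chr15:77002703-77004366, intergenic, 19.072 kb from the start), which encodes the oxygen carrier myoglobin, had log2 levels per kb of 7.68 and 7.62 in EDL, 6.69 and 7.03 in Quad, 6.67 and 6.56 in Sol and 7.68 and 8.12 in Dia. Its percentile was highest in Dia (92.5) and lowest in Sol (75.7). No H3K4me2 peak was called here in any of the 4 other Quad groups either, with the nearest peak of the 4 muscles 3138 bp away.

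Acetyl-only regions near metabolic genes included some whose rank differed between muscles. An intron of Phkb (chr8:86032045-86040172), the gene of a regulatory subunit of the glycogen phosphorylase kinase, stood at percentile 95.7 in EDL and 98.3 in Quad, and at 73.9 in Sol and 70.0 in Dia. Its levels were 7.91 and 7.98 in EDL, 7.84 and 7.73 in Quad, 6.82 and 6.31 in Sol and 7.26 and 6.61 in Dia. An intergenic region near Ppp1r3c, which encodes a glycogen-targeting phosphatase subunit, also ranked higher in Quad and EDL, with 93.5 in Quad and 87.1 in EDL above 68.5 in Dia and 63.6 in Sol. The Lpl region went the other way, from 76.3 in EDL to 89.8 in Dia. A region near Trim24, a transcriptional cofactor, stood at 96.8 in Quad and 64.8 in Sol. These ranks come from lists normalized separately, and no test was made of their order.

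The next question was how acetyl-only regions looked in libraries that the rule did not use. An H3K27ac peak was listed at 60.5% of them in Sed, 59.6% in Ex, 76.0% in Wt and 60.4% in mTg quadriceps. In at least 1 of the 4 groups, 93.0% had a peak. For dimethylated regions the shares in the 4 groups were 88.8%, 84.5%, 89.9% and 80.4%. Over all merged regions, which include those of 1 or 2 muscles, they were 57.9%, 56.1%, 67.5% and 52.9%. The acetyl-only shares were thus nearer to those over all merged regions than to the dimethylated ones. All 4 lists held 845 acetyl-only regions (26.8%), and 221 were in none. Within these lists their median percentile was again low, at 23.5 in Sed, 28.5 in Ex, 34.8 in Wt and 27.1 in mTg.

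Most of them again had no H3K4me2 peak. A peak was listed at 280 acetyl-only regions in Sed (8.87%, interval 7.93% to 9.91%), 251 in Ex (7.95%), 601 in Wt (19.0%) and 91 in mTg (2.88%), against 77.2%, 73.9%, 84.7% and 62.0% of dimethylated regions. In at least 1 of the 4 groups 959 had a peak (30.4%, interval 28.8% to 32.0%), and 2198 (69.6%) had none in any of the 8 groups. Among dimethylated regions 93.0% had a peak in at least 1, and 90.6% of those without a promoter. The order of the groups followed the length of the lists, from 46944 H3K4me2 peaks in Wt to 27527 in mTg, where 1 replicate had 6.41 M tags. The part of list length and depth in these shares was not tested. The most common pattern was a peak in Wt alone (424 regions), then in Sed alone (146) and Ex alone (129). Only 5 acetyl-only regions had H3K4me2 in all 4 groups, near Hivep2, Ptcd2, Pcdhgc5, Ppp1r21 and Cdc42ep4.

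**Figure D2:**
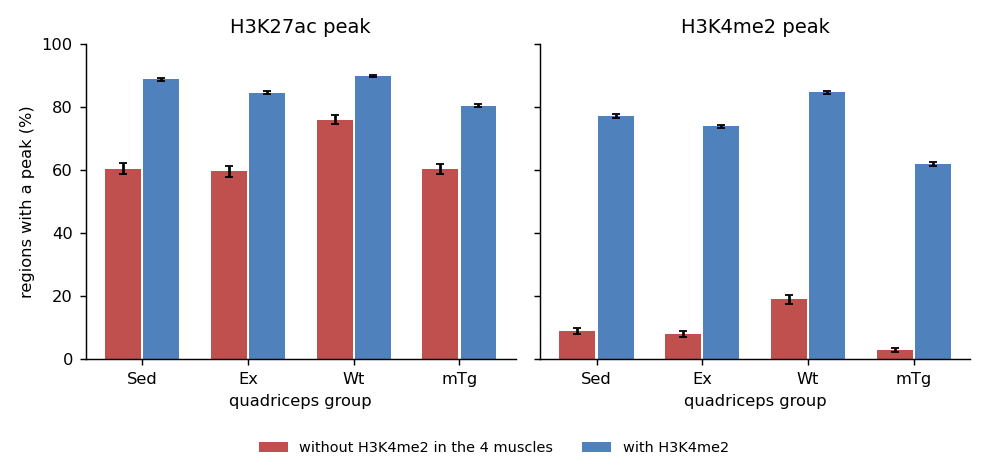
Share of acetyl-only (red) and dimethylated (blue) regions with an H3K27ac peak (left) or H3K4me2 peak (right) in the 4 Quad groups not used to choose them, with Wilson 95% intervals over regions. Acetylation is found at 59.6% to 76.0% of the acetyl-only regions, and H3K4me2 at 2.88% to 19.0%.

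Accessible chromatin was found in most acetyl-only regions. In control quadriceps, 1732 of 3157 (54.9%, interval 53.1% to 56.6%) overlapped an ATAC peak, against 83.0% (82.5% to 83.4%) of dimethylated regions, 79.0% of those without a promoter and 54.5% of all merged regions. The share was 64.2% for acetyl-only regions of all 4 muscles and 47.4% for those of 3. It was 56.4% where Quad had an H3K27ac peak and 42.8% where it had none. In the central 500 bp the gap was small beside dimethylated regions without a promoter: 32.7% (31.1% to 34.3%) against 34.1% (33.4% to 34.8%). The strongest ATAC peak in a region was also weaker, with a median of 6.01 normalized tags against 10.5, and 3.52% held more than 1 peak against 17.4%. The strongest were near Ssu2 (26.1 tags), Trim24 (24.9) and Tfcp2l1 (23.6).

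Regions of like acetylation were then compared, since acetyl-only regions have lower levels. In the lowest class of mean H3K27ac percentile (0 to 25), an ATAC peak lay in 36.0% (33.3% to 38.8%) of acetyl-only regions and 41.5% (39.3% to 43.8%) of dimethylated ones. In the class from 25 to 50 the shares were 61.1% and 67.2%, from 50 to 75 they were 82.5% and 89.4%, and from 75 to 100 they were 89.7% (26 of 29) and 98.3%. The acetyl-only share was the lower in all 4 classes, by less than the 54.9% against 83.0% found over all regions. H3K4me2 in at least 1 of the 4 other Quad groups behaved differently, with 20.6% against 75.5% in the lowest class and 51.7% against 99.5% in the highest. The acetyl-only share of H3K4me2 was thus larger in the higher classes, and below that of dimethylated regions in all 4.

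**Figure D3:**
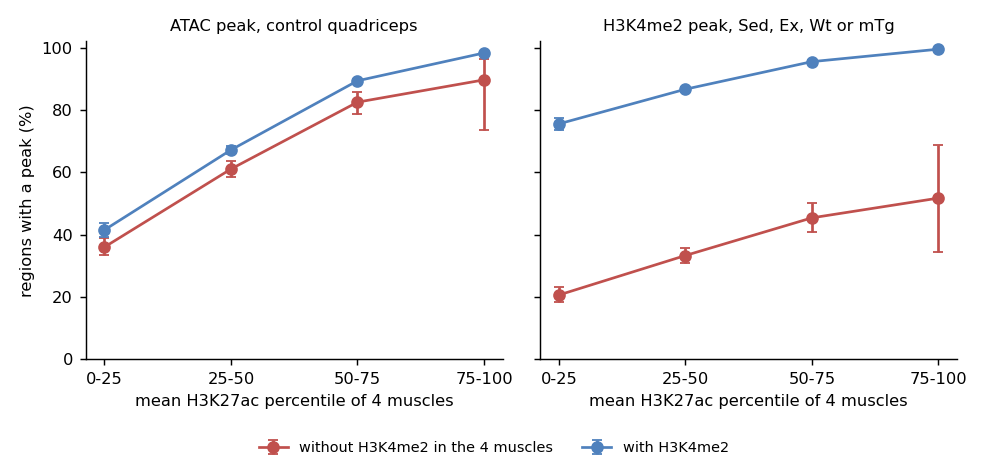
Share of regions with an ATAC peak in control quadriceps (left) and with an H3K4me2 peak in at least 1 of Sed, Ex, Wt and mTg (right), by class of mean H3K27ac percentile in the 4 muscles, for acetyl-only (red) and dimethylated (blue) regions; bars are Wilson 95% intervals over regions. The ATAC shares go up together, from 36.0% and 41.5% to 89.7% and 98.3%, and the H3K4me2 shares stay apart.

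Width gave another picture. Among the narrowest regions (up to 1866 bp) 39.8% of acetyl-only ones had an ATAC peak against 78.3% of dimethylated ones, and among the widest (over 3273 bp) 66.4% against 88.4%. For dimethylated regions without a promoter the shares in these 2 classes were 69.6% and 87.2%. Across 4 classes of GC content, set at the quartiles of the acetyl-only regions, the acetyl-only share stayed between 49.9% and 58.5%. The dimethylated share was 76.8% to 87.5%, and 75.1% to 82.4% without a promoter.

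Dimethylated regions were split by how many of the 4 muscles had the H3K4me2 peak, to place the acetyl-only regions in a series. The ATAC share was 54.9% with 0 muscles, 66.7% with 1, 72.5% with 2, 75.5% with 3 and 89.1% with 4. The share with H3K4me2 in at least 1 other Quad group went from 30.4% to 64.0%, 83.2%, 93.2% and 99.6%. The median H3K27ac percentile went from 30.3 to 39.6, 45.1, 49.1 and 73.4, and promoters from 0.634% to 0.822%, 1.04%, 1.74% and 29.4%. Acetyl-only regions stood at the low end of each series, and most promoters lay in the class with H3K4me2 in all 4 muscles.

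**Figure D4:**
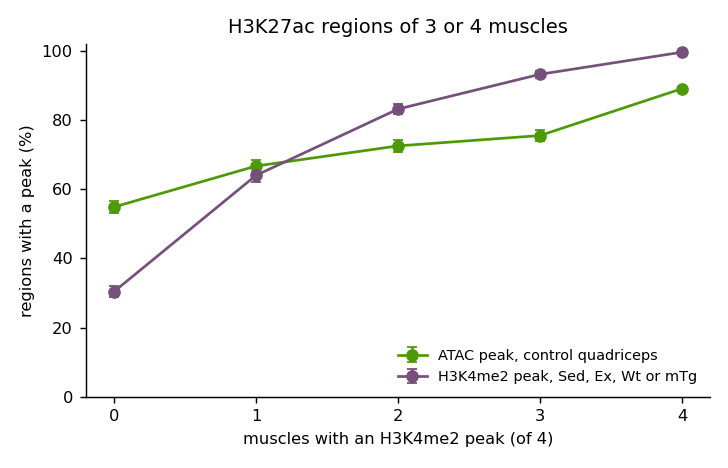
Share of regions acetylated in at least 3 muscles that had an ATAC peak in control quadriceps (green) or an H3K4me2 peak in at least 1 of the 4 other Quad groups (purple), by the number of muscles with an H3K4me2 peak; bars are Wilson 95% intervals over regions. The acetyl-only regions are the points at 0, with 54.9% and 30.4%.

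Factor peaks were rare at acetyl-only regions. MED1 had a peak at 81 of them in at least 1 muscle (2.57%, interval 2.07% to 3.18%), against 15.7% of dimethylated regions and 11.0% of those without a promoter. Only 2 had MED1 in more than 1 muscle. Both were annotated as 3' untranslated. Their nearest start sites were those of Plin4 (chr17:56099428-56104428, MED1 in EDL and Quad), which encodes a lipid droplet protein, and of Atp1a4, a sodium pump subunit (MED1 in EDL and Sol). NFAT, the calcineurin-dependent factor, had a peak in Sol at 4.05% (3.42% to 4.80%) against 4.56% (4.30% to 4.83%), shares whose intervals overlapped. The Sol list held 39661 NFAT peaks, and only 128 acetyl-only and 1071 dimethylated regions overlapped one. The Quad list held 485, with a peak at 4 acetyl-only regions (0.127%) and 18 dimethylated ones (0.0766%). Each factor list came from 1 library, so these shares carry no replicate error.

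Base composition and short words were compared in the central 500 bp. The median GC content was 46.2% in acetyl-only regions, 50.4% in dimethylated ones and 48.4% in those without a promoter, with 1.0, 1.6 and 1.4 CpG per 100 bp. TGACTCA, the AP-1 word, was in 15.1% (13.9% to 16.4%) of acetyl-only centres against 9.09% (8.73% to 9.46%) of dimethylated ones and 10.5% (10.1% to 11.0%) without a promoter. AGAACA, a half-site of steroid receptors, was in 44.9% against 32.1% and 36.3%. GGGCGG, a word of GC-rich promoters, went the other way, with 7.13% against 30.2% and 18.7%. CAGCTG was at 29.6%, 27.8% and 29.5%, and the MEF2 consensus at 1.84%, 2.06% and 2.57%.

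The excess of TGACTCA was also seen at accessible sites and within GC classes. In 200 bp at the strongest ATAC peak it was in 13.5% (11.9% to 15.1%) of acetyl-only regions, 7.14% of dimethylated ones and 9.09% of those without a promoter. From the lowest to the highest of the GC classes the shares in region centres were 13.7%, 14.6%, 15.5% and 16.7%, beside 9.74%, 11.5%, 12.0% and 9.63% for dimethylated regions without a promoter. The windows of Fez1, Hexa and B3galt2 shown above are examples. TGACTCA was not the only word with such an excess. At the strongest ATAC peak AGAACA was in 25.8% of acetyl-only regions, 13.5% of dimethylated ones and 16.7% without a promoter. In the same order AGGTCA had 21.6%, 15.2% and 18.2%, and CATTCC had 16.0%, 10.8% and 12.4%. GGGCGG went the other way, with 3.58%, 33.9% and 21.9%, as did CACGTG and the MEF2 consensus. Within each GC class AGAACA was also more frequent in acetyl-only regions.

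Genes near the acetyl-only regions were spread widely. The 3157 regions had 2262 nearest genes, 1674 of which had a single region and 25 at least 5. The most were near 9430078K24Rik (11 of 28 regions acetylated in at least 3 muscles), Gm12159 (9 of 13), 1700016G22Rik (8 of 17), Irf2bp2 (7 of 18) and Zfp438 (7 of 10). Irf2bp2 encodes a transcriptional repressor partner. The Krüppel-like factor gene Klf4 had 6 of 18, all intergenic, 91477 to 558467 bp from its start, and 5 of them accessible. The TGF-beta receptor gene Tgfbr2 also had 6 of 18.

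The acetylated regions of 10 gene groups of muscle were counted, beside a share without H3K4me2 of 11.8% over all regions of at least 3 muscles. Sarcomere and Z-disc genes had 9 of 127 (7.09%, interval 3.77% to 12.9%), calcium handling genes 5 of 78 (6.41%), fiber-type and myogenic factors 14 of 208 (6.73%, 4.05% to 11.0%), and dystrophin complex genes 7 of 88 (7.95%). Coactivator and nuclear receptor genes had 14 of 128 (10.9%) and growth and atrophy genes 12 of 100 (12.0%). Extracellular matrix and vessel genes had 19 of 120 (15.8%, 10.4% to 23.4%), clock and early response genes 15 of 103 (14.6%), fatty acid and mitochondrial genes 9 of 62 (14.5%), and glycolysis and glycogen genes 9 of 64 (14.1%). All of these intervals but that of the fiber-type factors included 11.8%, and the groups were not tested against each other.

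Within the groups, the acetyl-only regions with most acetylation were near Irs2, Phkb, Lpl and Ppp1r3c, described above. Klf9, a glucocorticoid-induced transcription factor, had 3 acetyl-only regions of 9, the highest at percentile 60.6. Ppargc1a, which encodes the coactivator PGC1α, had 3 of 9, at percentiles 40.7 to 50.6 and none with an accessible site. Vgll2, a cofactor of TEAD factors, had 4 of 9, and 3 of these were accessible. Fosl2, an AP-1 subunit, had 3 of 10. The VEGF receptor genes Flt1 and Kdr had 3 of 11 and 3 of 14. Myom3, an M-band protein of the sarcomere, was the sarcomere gene with most, 2 of 4.

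The promoter regions were few and mostly weak. The 10 most acetylated of the 20 had mean percentiles of 33.0 to 66.7, and 5 of the 10 had an accessible site. The highest was the start of the noncoding gene 9930111H07Rik, at 34.5 in EDL, 86.1 in Sol and 79.4 in Dia with no Quad peak. A start site of Ube2h, which encodes a ubiquitin-conjugating enzyme, was at 47.7. At Tyrobp, an adaptor of myeloid cell receptors, the percentile was 21.3 in EDL and 54.1 in Dia.

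Acetyl-only regions were then followed in Quad after exercise and in transgenic muscle. The authors' lists of regions that differed between Ex and Sed or between mTg and Wt were used. The authors had selected those regions for differing in these libraries, so the test here measures how far replicates separate and is not independent evidence. All 382 regions listed as higher and 2280 as lower in Ex, and all 1828 higher and 844 lower in mTg, passed limma's moderated test at an adjusted p under 0.05. With 2 libraries a group, limma's SE and p of a region rest mostly on the spread shared over all listed regions and little on the region's own replicates. The levels were taken to be regularized log2 values, which shrink differences, so a difference here is not a plain log2 fold.

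In Ex against Sed, 34 acetyl-only regions (1.08%) overlapped a hyperacetylated region, where 0.341% of all regions of at least 3 muscles did. Another 130 (4.12%, 3.48% to 4.87%) overlapped a hypoacetylated one, against a background of 5.55%. The median difference was 0.67 log2 units at the hyperacetylated and −0.70 at the hypoacetylated ones. Far fewer of these 164 regions passed without Ex replicate 2, and far fewer of all 2662 listed regions did too. Leaving out any other replicate changed the number less. No difference at these regions changed sign in these fits. The largest difference was an intergenic region near Ccdc43 (chr11:102706271-102708717), with log2 H3K27ac of 6.47 and 6.02 in Ex and 7.37 and 7.66 in Sed, a fall of 1.27 (SE 0.22, limma adjusted p 9.25e-06). The groups did not overlap, in a region that the authors had listed for differing in these same libraries. An intronic region nearest to Slc15a4, a lysosomal transporter gene, had 8.31 and 7.90 in Ex and 9.30 and 9.03 in Sed, lower by a log2 difference of −1.07 (SE 0.27, limma adjusted p 0.000573). The other 8 of the 10 largest were also lower in Ex, by −1.14 near Cep120 to −0.98 near Slc35b3.

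Of the hyperacetylated ones the largest was an intronic region nearest to Slc8a1, the sodium-calcium exchanger gene, with 6.71 and 7.01 in Ex and 6.03 and 5.95 in Sed (difference 0.87, SE 0.21, limma adjusted p 0.000329). An intergenic region near Galnt15 had 8.50 and 8.98 against 7.77 and 8.02, and one near Col5a1, a fibrillar collagen gene, 7.70 and 8.19 against 6.97 and 7.36. These 3 were named after their values were seen. The Slc8a1 region was also in the mTg lists, where it was lower, with a mean log2 H3K27ac of 5.63 ± 0.036 in mTg and 6.19 ± 0.21 in Wt (SD, n = 2; difference −0.56, limma adjusted p 6.59e-05).

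In mTg against Wt, 148 acetyl-only regions (4.69%) overlapped a hyperacetylated region, against a background of 3.34%, and 59 (1.87%, 1.45% to 2.40%) a hypoacetylated one, against 1.25%. Leaving out any replicate kept 203 to 207 of the 207. The median difference was 0.75 and −0.60 log2 units. The largest was an intergenic region near Cd180, a receptor gene of B cells, with 9.59 and 9.48 in mTg and 7.40 and 8.43 in Wt (difference 1.62, SE 0.15, limma adjusted p 7.20e-22). The Wt replicates were spread (SD 0.73, n = 2), which the SE hardly reflects, and both lay below both mTg values. The study reports raised macrophage and vessel markers in mTg muscle. It proposes that a changed mix of cells could contribute to signals there, which was not tested here.

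Other large gains were in an intronic region nearest to Strc (7.63 and 7.75 in mTg, 6.27 and 6.37 in Wt), near Mas1, at a transcript end (7.71 and 7.87, 6.26 and 6.62), near Chpt1, an enzyme of phosphatidylcholine synthesis (9.03 and 9.07, 7.87 and 7.77), and near Cyp7a1, the enzyme that starts bile acid synthesis in liver (8.38 and 8.61, 7.34 and 7.28). The Cyp7a1 region is among those printed above without an accessible site. The largest loss was the Phkb intron, with 8.61 and 8.45 in mTg and 9.63 and 9.95 in Wt, a fall of 1.26 (SE 0.14, limma adjusted p 5.11e-16). The 2 groups did not overlap at any of these regions, which the authors had listed for differing in these same libraries. In Ex against Sed the Phkb intron was lower too, with 9.24 and 8.95 in Ex and 10.2 and 9.68 in Sed.

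**Figure D5:**
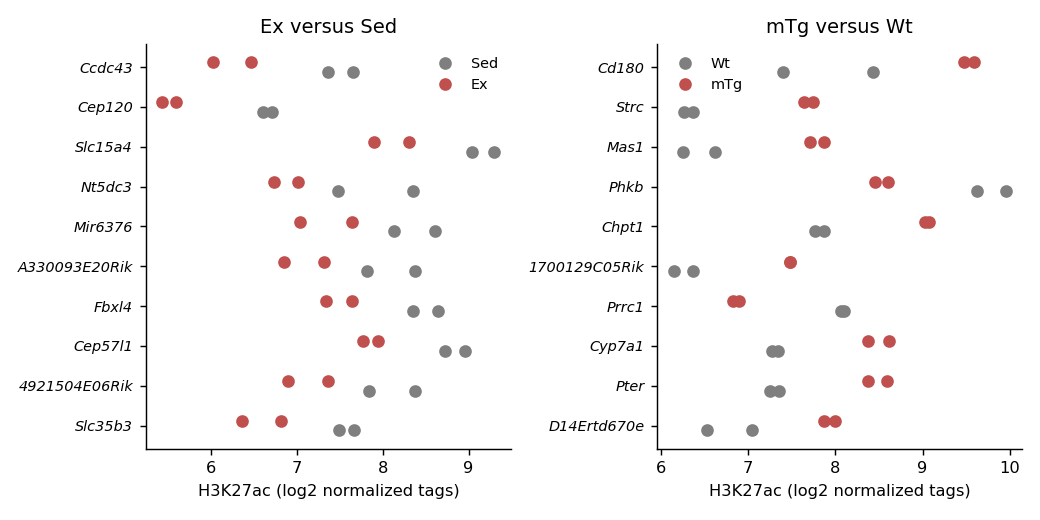
Log2 normalized H3K27ac in each of 2 libraries per group at the 10 acetyl-only regions with the largest differences in Ex against Sed (left) and in mTg against Wt (right), named by nearest gene, with Ex and mTg in red and Sed and Wt in grey. All 10 on the left are lower in Ex, and on the right 8 of 10 are higher in mTg, with Phkb and Prrc1 lower.

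Listed acetyl-only regions were themselves unlike in other measures. An accessible site lay in 94 of the 130 lower in Ex (72.3%, 64.1% to 79.3%) and 41 of the 59 lower in mTg (69.5%, 56.9% to 79.7%). It lay in 16 of the 34 higher in Ex (47.1%, 31.5% to 63.3%) and 77 of the 148 higher in mTg (52.0%, 44.0% to 59.9%). Of all acetyl-only regions, 54.9% had one. The ATAC peaks came from control quadriceps, and regions lower in Ex or mTg had been listed for more H3K27ac in control quadriceps. The part of this listing and of H3K27ac level in these shares was not tested. The median H3K27ac percentile in the 4 muscles was 20.9 for the regions higher in Ex, 46.2 for those lower in Ex, 44.3 for those higher in mTg and 33.0 for those lower in mTg. H3K4me2 in at least 1 of the 4 other Quad groups was listed at 70 of the 148 regions higher in mTg (47.3%, 39.4% to 55.3%), 48 of the 130 lower in Ex (36.9%), 18 of the 59 lower in mTg (30.5%) and 10 of the 34 higher in Ex (29.4%), beside 30.4% of all acetyl-only regions.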

How the data were processed

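Histone marks, accessibility and factor binding were measured in mouse muscle by ChIP-seq and ATAC-seq, and samples were grouped by their titles. The authors aligned reads with Bowtie (1.2 per the labels' processing notes) to mm10, kept 1 tag per position, and called histone peaks over both replicates against input with HOMER and DESeq2 (2-fold, FDR 0.05). Per the file headers, the deposited tag columns were scaled to library totals within each list. They were taken as regularized log2 values from their range, since the headers do not state the scale. The deposited p-value columns and log2 fold values are the authors' own, and were used here only to filter and describe peaks. The columns of the differential lists that hold the authors' comparisons were not used. For ATAC controls the deposited peak list holds normalized tags (a signal) and their ratio to the surrounding region, at an FDR of 0.001 and 4-fold, from 79.0 M pooled tags. Any transposase offset was not given in the sources used here. ATAC lists of other groups and footprints are not in mm10 and were not used here.

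Lists were merged with bedtools 2.31.1 and overlapped at 1 bp. A region's annotation and nearest gene are the authors', from its peak with the highest level, and a promoter spans 1000 bp before and 100 bp after a start site. Percentiles rank the level per kb within a list. Wilson 95% intervals of shares reflect counting error alone, since regions are no replicates. The values used here are not counts, so listed differential regions were tested with limma 3.58.1 (R 4.3.3, two-sided, variance trend, Benjamini-Hochberg over both lists of a contrast), which was tested on simulated data. Sequence was read from GRCm38 with pysam 0.24.0. The members and gene lists were chosen with earlier results of these data known. Named regions are the most acetylated, the widest, promoters, those with most regions per gene, gene-list members, the 10 largest differences per contrast, MED1 in at least 2 muscles, H3K4me2 in all 4 other groups, and the strongest ATAC peaks. Alternatives changed the peak thresholds, overlaps, replicates, width scaling and the limma settings.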

Additional observations from a re-analysis of the deposited data

How the results depend on the processing

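The number of regions depended most on the peak threshold. It was 3157, and 1395 with all 4 muscles required, 898 with H3K27ac peaks of adjusted p under 0.001, and 1900 where the peaks of each of 3 muscles had to cover at least 50% of the merged region, an alternative chosen after seeing the data. It stayed within 1.5 times with 4-fold enrichment (2225), with no H3K4me2 peak within 1000 bp (3009), with none in any of the 8 groups (2198), and with peaks over at least 50% of the shorter (3157, which every peak meets). The ATAC share moved from 54.9% to 64.2% (all 4 muscles), 74.6% (adjusted p under 0.001) and 32.7% (central 500 bp). The share with H3K4me2 in another Quad group moved from 30.4% to 35.2% and 39.4% under the first and second of these. The promoter share was 1.08% where any peak of a region counted, the median width 2237 bp for the widest peak, and the median percentile 33.9 without division by width. Leaving out a replicate gave a median percentile of 30.2 to 30.4.

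Leaving out 1 library gave 53 (without Ex replicate 2) to 164 acetyl-only regions in Ex against Sed and 203 to 207 in mTg against Wt. The lone library of a group was then assumed to vary like the other group. With the replicate number as a replicate block the counts were 164 and 207, as without it. Deviations of same-numbered libraries correlated at 0.277 (Ex and Sed) and −0.103 (mTg and Wt), and nothing in the labels pairs them. The cause of these shifts was not tested. How depth bears on weakly acetylated regions was not tested, and a missing H3K4me2 peak is a missing call.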

Other observations

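Acetyl-only regions also formed short runs. With gaps of at most 10000 bp, 599 of the 3157 (19.0%) lay in 274 runs of at least 2, and 41 runs had at least 3. The longest held 5, one near 1700023C21Rik and Abca8b (54.251 kb, 4 of the 5 accessible) and one near Podxl (23.423 kb, 4 of the 5 accessible). Podxl encodes podocalyxin, a surface sialomucin of endothelium. By chromosome the share without H3K4me2 among regions of at least 3 muscles ran from 9.52% on chromosome 19 to 14.7% on chromosome 13, and was 10.9% on chromosome X.

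Regions of fewer muscles without H3K4me2 had ATAC peaks in control quadriceps at 1246 of 9640 of 1 muscle (12.9%, Wilson 95% interval 12.3% to 13.6%) and 1015 of 3166 of 2 muscles (32.1%, 30.5% to 33.7%). The fold enrichment over input did not follow the level in every list. Its median log2 value was lower than at dimethylated regions in EDL, Quad, Sol, Dia, Sed and Ex (2.32 against 2.78 in EDL), and higher in Wt (3.30 against 3.08) and mTg (2.92 against 2.75).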
